A study of Mus musculus with 9 samples.

Results

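The SLC25 family of mitochondrial solute carriers was examined in RNA bound to astrocyte ribosomes. The members were all protein-coding mouse genes whose symbol is Slc25a followed by a number, and 47 of the 22092 genes measured met this rule. RNA-seq libraries came from translating ribosome affinity purification (TRAP), in which ribosomes carrying a GFP-tagged protein are immunoprecipitated with their mRNAs. Endfeet TRAP (6 libraries) started from mechanically purified brain vessels, to which astrocyte perivascular endfeet stay attached, and whole astrocyte TRAP (3 libraries) from brain. Each endfeet library pooled the vessels of several mice and each whole astrocyte library held 1 brain, freed of choroid plexus. All mice of both groups were 2 months old, of the strain Aldh1L1 JD130 with the genotype tg:Aldh1L1-L10aGFP. In this BAC transgenic line the ribosomal protein L10a fused to eGFP is driven by the Aldh1l1 promoter, which is active in astrocytes, and no untagged or non-transgenic library was analysed here. Neither treatment nor deletion distinguished the groups.

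Carriers of the SLC25 family sit mostly in the inner mitochondrial membrane. They are made in the cytosol from nuclear genes and exchange nucleotides, phosphate, carboxylates, amino acids, fatty acid conjugates, cofactors and metals between cytosol and matrix. In astrocytes they link glycolysis to respiration through the malate-aspartate shuttle, move glutamate into mitochondria and supply ATP to the cytosol. Several substrates are served by a pair of closely related members that differ in tissue distribution, so the balance within pairs was examined as well as each member alone.

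A family member is recognised by a repeated motif, the carrier signature, which reads proline, any residue, an acidic residue, any 2 residues and a basic residue. Each complete carrier holds 3 repeats of the domain, and the motif stands near the end of the first helix of a repeat. Of the 43 members represented by a protein-coding transcript, 23 held 3 exact matches, 12 held 2, 6 held 1 and 2 held 0. Among 20299 protein-coding genes searched in the same way, 2.33% held at least 3 matches, against 53.5% of these members. The first matches of 3 related pairs are printed because the members of a pair carry the same substrates and the balance within each of these pairs is among the results. The letters come from GENCODE M21 transcripts on mm10, run 5′ to 3′ along the coding strand, and carry the codons of the signature in capitals. The ADP/ATP carrier stretches lie at chr8:46209506-46210856 on the minus strand (Slc25a4) and chrX:36795797-36796845 on the plus strand (Slc25a5), and an intron interrupts both.
Slc25a4: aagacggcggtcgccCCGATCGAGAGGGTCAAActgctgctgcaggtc
Slc25a5: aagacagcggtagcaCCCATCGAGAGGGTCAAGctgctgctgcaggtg
The aspartate/glutamate carrier stretches lie within a single coding exon each, at chr2:71296768-71296815 (Slc25a12) and chr6:6109284-6109331 (Slc25a13), both on the minus strand.
Slc25a12: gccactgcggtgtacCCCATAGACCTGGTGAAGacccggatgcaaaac
Slc25a13: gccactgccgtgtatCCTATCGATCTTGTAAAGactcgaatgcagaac
The glutamate carrier stretches also lie within a single coding exon each, at chr6:120786080-120786127 on the plus strand (Slc25a18) and chr7:141433932-141433979 on the minus strand (Slc25a22).
Slc25a18: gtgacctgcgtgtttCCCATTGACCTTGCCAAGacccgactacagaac
Slc25a22: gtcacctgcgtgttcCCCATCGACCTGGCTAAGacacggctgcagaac
Of 48 bases, 42 were the same between Slc25a4 and Slc25a5, 38 between Slc25a12 and Slc25a13 and 40 between Slc25a18 and Slc25a22. Over the whole coding sequences the identities were 77.4%, 70.8% and 68.7%.

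The values are raw counts of reads aligned to a single place, and each gene is represented by the transcript with the highest CPM (counts scaled to a fixed library total) summed over libraries. Gene totals ran from 35984144 to 43521208 in whole astrocyte TRAP and from 2319495 to 13450588 in endfeet TRAP, and endfeet library 6 was the smallest. Taken as 3 counts, the smallest level that could be told from 0 lay between 0.0689 and 0.0834 CPM for brain-derived libraries but between 0.223 and 1.29 CPM for those from vessels, a floor that covers counting error only because amplified reads are not independent molecules. The spread between endfeet libraries was far wider, with a common dispersion of 0.735 against 0.0145. The main edgeR fit used a single estimate of the spread for both groups, while the alternative fit with limma voom gave each group its own weight. Markers of vascular cells differed between the groups, as all 10 endothelial and all 10 mural markers were higher in endfeet TRAP. The summed normalized CPM of the endothelial list ran from 3232 to 4962 against 6.63 to 7.54, and that of the mural list from 4093 to 8564 against 42.6 to 47.1. None of the 20 markers was at 0 in all endfeet libraries. Fibroblast markers (7 of 7 higher, 779.3 to 1537 against 29.0 to 42.4) and microglial markers (5 of 8 higher, 211.4 to 335.3 against 17.6 to 21.3) moved the same way. Astrocyte markers summed to 9647 to 30070 against 33730 to 37870, with 5 of 10 lower and 0 higher. The lower ones were Aldoc (log2 fold change -3.997), Sox9 (-3.27), Glul (-3.26), Aldh1l1 (-2.38) and Gjb6 (-1.44). The other 5 did not pass, namely Slc1a2 (log2 fold change 0.93), Slc4a4 (0.61), Slc1a3 (0.27), Gja1 (-0.01) and Fgfr3 (-0.85). Neuronal markers (3 of 8 lower, 977.6 to 1984 against 3446 to 4002) and oligodendrocyte markers (1 of 7 lower, 222.2 to 545.4 against 624.0 to 631.1) had 0 higher. These lists separated along with every member difference described below, and their part in those differences was not tested. In such bulk samples, fewer cells of a type and less RNA per cell cannot be told apart.

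More SLC25 members were lower than higher in endfeet TRAP. Of the 47 members, 41 passed the filter on low counts. In edgeR's quasi-likelihood test over 14427 genes (Benjamini-Hochberg adjusted p of at most 0.05), 3 members rose from whole astrocyte to endfeet TRAP, 14 fell and 24 missed the threshold. The 3 higher members are 7.32% of those tested, where 20.7% of all genes tested were higher. The 14 lower members are 34.1%, where 13.9% of all genes were lower. The median log2 fold change of the members was -0.73, against 0.10 over all genes tested. For 14 of the 41 tested members all endfeet libraries lay below all whole astrocyte libraries, where this held for 23.8% of all genes, and these were the 14 lower members. All endfeet libraries lay above for 4 of the tested members, where this held for 18.9% of all genes, and these were the 3 higher members and Slc25a51. Summed over the family, TPM (a level per transcript length, scaled to a fixed total) amounted to 7115 ± 163.4 (SD, n = 3) in whole astrocyte TRAP against 2739 ± 444.8 (SD, n = 6) in endfeet TRAP. The lowest whole astrocyte sum was 6943 TPM and the highest endfeet sum 3489 TPM, so the groups did not overlap. Slc25a4, Slc25a3, Slc25a23, Slc25a18 and Slc25a46, all among the lower members, made up most of it. Their share was 69.6% to 71.8% in whole astrocyte TRAP and 54.6% to 61.0% in endfeet TRAP, so the sum largely follows these members. The 24 members that did not pass had log2 fold changes from -2.0 to 1.16 with standard errors from 0.353 to 1.57. Without any 1 of the whole astrocyte libraries, 2 members were higher and 7 lower, and the shares of all genes called dropped as well, to between 12.6% and 13.2% higher and between 7.89% and 8.19% lower. By the numbers in their deposited names, not their replicate numbers, endfeet libraries 4 to 6 fall in the same series as the whole astrocyte libraries. No sample label states this series. With these endfeet libraries alone 4 members were higher and 16 lower (all genes, 19.5% and 19.7%). With the number series as a covariate 4 were higher and 9 lower (all genes, 18.6% and 11.6%), and the calls of Slc25a1, Slc25a3, Slc25a16, Slc25a20, Slc25a22 and Slc25a44 were lost. Endfeet libraries 1 to 3 form a series with 1 group only, which gives no comparison of its own.

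**Figure D1:**
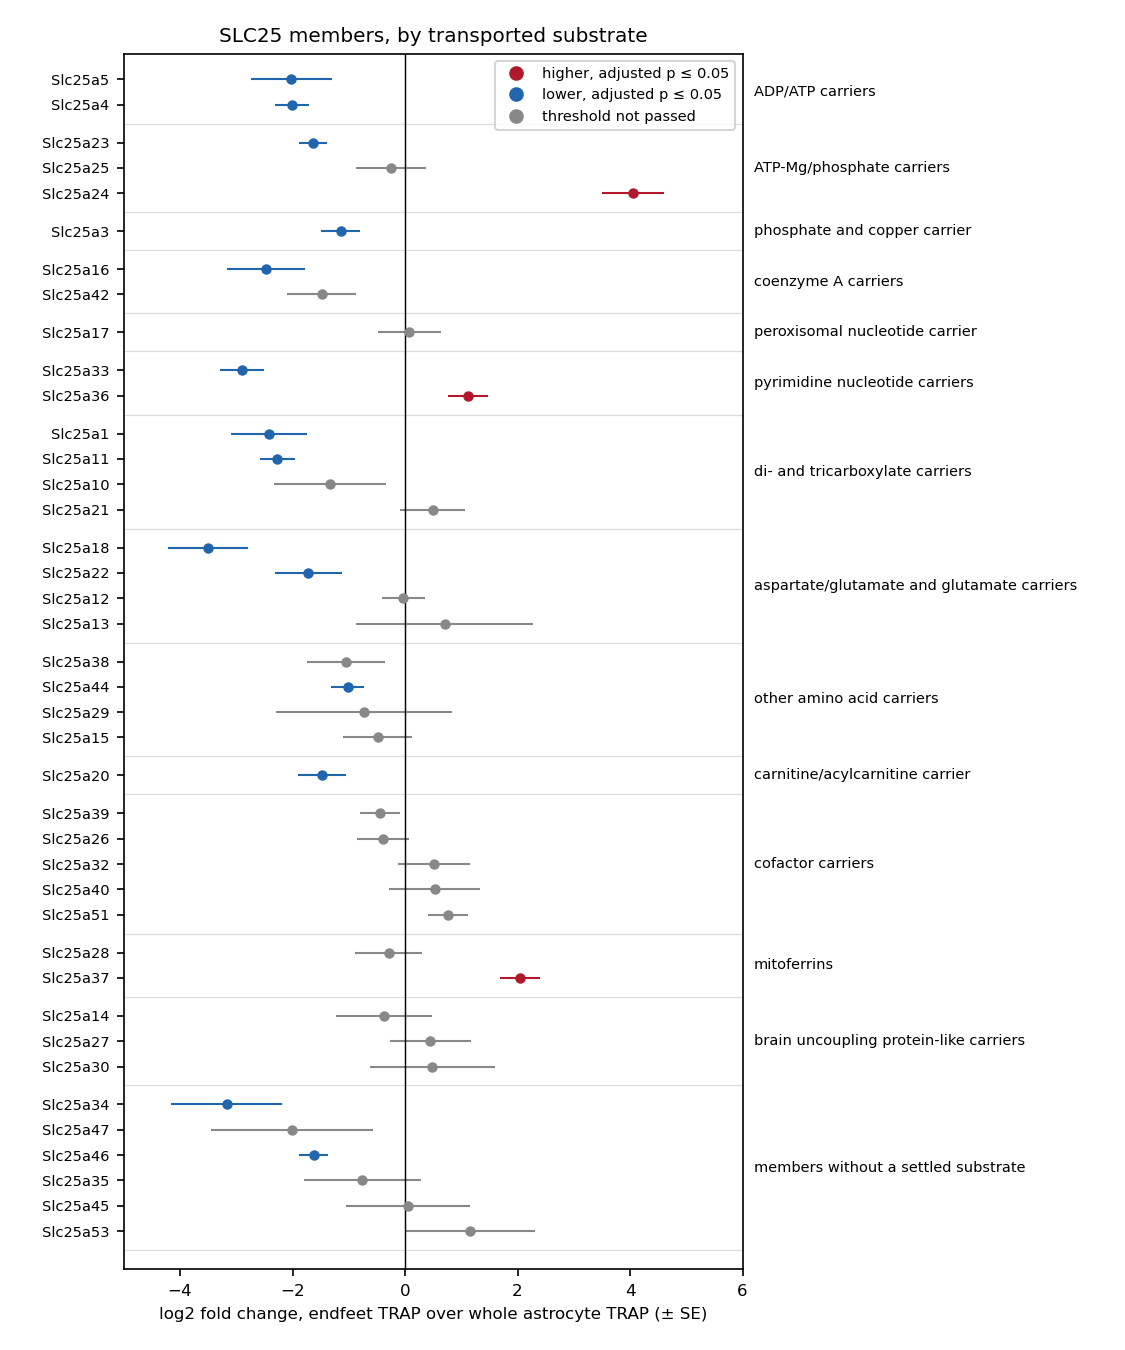
Log2 fold change of endfeet TRAP over whole astrocyte TRAP (x axis) for 40 of the 41 members tested (y axis), grouped by substrate. Points are estimates of edgeR's quasi-likelihood fit, bars are standard errors, and colors give the call. The 3 higher members are Slc25a24, Slc25a37 and Slc25a36, while 14 members lie on the lower side past the threshold.

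The ADP/ATP carriers, which export ATP made in the matrix in exchange for ADP, were both lower in endfeet TRAP. Slc25a4 (chromosome 8, 46206797 to 46211284 in mm10) was the most abundant member of both groups, with 2379 ± 212.0 TPM (SD, n = 3) in whole astrocyte TRAP against 638.0 ± 159.2 TPM (SD, n = 6) in endfeet TRAP. Its normalized CPM was 1696, 1706 and 1461 in whole astrocyte libraries 1 to 3, and in endfeet TRAP the lowest value was 248.5, the median 373.3 and the highest 735.1. The highest endfeet value, in library 1, stood apart from the other endfeet libraries but was still below every whole astrocyte value. The log2 fold change of Slc25a4 was -2.0 (SE 0.304, adjusted p = 0.000239, edgeR quasi-likelihood test). Slc25a5, the second ADP/ATP carrier, had 9.30, 10.9 and 10.5 normalized CPM in whole astrocyte TRAP, while the endfeet values ran from 1.37 to 4.13 (median 2.08). Its log2 fold change was -2.02 (SE 0.719, adjusted p = 0.0444, edgeR), close to the threshold, and the call was lost without any 1 of the 3 whole astrocyte libraries, without endfeet library 2 or 5, without the filter on low counts, and with the replicate block. Its level is uncertain, since 72.3% of its transcript is shared at an identity of at least 95% with transcripts of 3 other genes, and reads aligning more than once had been removed by the authors. The germ cell carrier Slc25a31 had at most 2 counts in a whole astrocyte library and 4 in an endfeet library and was not tested.

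The calcium-regulated ATP-Mg/phosphate carriers, which adjust the adenine nucleotide pool of the matrix, included 1 member that rose (Slc25a24) and 1 that fell (Slc25a23). Slc25a24 (chromosome 3, 109123149 to 109168457) had 3.11, 3.86 and 3.25 normalized CPM in whole astrocyte TRAP, and 30.8 (lowest), 47.3 (median) and 93.2 (highest) in endfeet TRAP. Every endfeet library thus exceeded every whole astrocyte library, and the log2 fold change was 4.05 (SE 0.548, adjusted p = 0.0001, edgeR), the largest rise among the members tested. Per transcript length, it moved from rank 39 (2.80 ± 0.321 TPM) to rank 11 (53.4 ± 25.5 TPM) of the 47 members. Slc25a23 (chromosome 17, 57043711 to 57059863) was lower, with 604.5, 557.0 and 595.2 normalized CPM in whole astrocyte TRAP, and endfeet libraries spanned 136.1 to 269.2 (median 173.7). No endfeet value came near a whole astrocyte value, and the log2 fold change was -1.64 (SE 0.257, adjusted p = 0.000322, edgeR). It was the third member by TPM in endfeet TRAP. Slc25a25 ranged from 27.1 to 28.8 normalized CPM in whole astrocyte TRAP and from 2.74 to 41.9 in endfeet TRAP, so the groups overlapped (log2 fold change -0.25, adjusted p = 0.79, edgeR). Slc25a41 had 0 counts in all endfeet libraries and at most 0.0439 normalized CPM in whole astrocyte libraries, below the floor in both groups.

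Phosphate for ATP synthesis enters the matrix through Slc25a3, which also carries copper. Slc25a3 (chromosome 10, 91116574 to 91124059) held the second rank by TPM in both groups. It had 694.7, 671.7 and 714.5 normalized CPM in whole astrocyte TRAP, and 185.6 (lowest), 268.4 (median) and 630.9 (highest) in endfeet TRAP. Library 6 came close to the whole astrocyte values while the other endfeet libraries stayed at or below 336.6. On the log2 scale the fold change was -1.15 (SE 0.347, adjusted p = 0.0216, edgeR), and the call was lost without any 1 of the whole astrocyte libraries (adjusted p from 0.0609 to 0.081) and without endfeet library 2 (adjusted p = 0.0581), with endfeet libraries 4 to 6 alone (adjusted p = 0.0714) and with thinned libraries (adjusted p = 0.0787).

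Carriers of coenzyme A and of pyrimidine nucleotides included the member with the smallest adjusted p on the lower side. Slc25a33 (chromosome 4, 149744036 to 149774277), a pyrimidine nucleotide carrier, had 256.8, 249.8 and 279.8 normalized CPM in whole astrocyte TRAP, while the endfeet values ran from 14.4 to 54.2 (median 39.6). Its log2 fold change was -2.90 (SE 0.392, adjusted p = 0.0001, edgeR). Of its exonic bases, 14.9% overlap the gene Gm13068 on the opposite strand, and the strand setting of the counting is not given in the sources used here. The second pyrimidine nucleotide carrier, Slc25a36 (chromosome 9, 97074961 to 97111157), was higher in endfeet TRAP. It had 32.9, 35.1 and 38.3 normalized CPM in whole astrocyte TRAP, while the endfeet values ran from 52.1 to 104.9 (median 76.1), without overlap. The log2 fold change was 1.12 (SE 0.356, adjusted p = 0.0274, edgeR), and the call was lost without any 1 of the whole astrocyte libraries, without endfeet library 4 or 5, with thinned libraries and with the replicate block (adjusted p from 0.0515 to 0.154). Slc25a16 (chromosome 10, 62920633 to 62946498), linked to coenzyme A transport, had 123.7, 127.8 and 125.5 normalized CPM in whole astrocyte TRAP, while the endfeet values ran from 0.563 (library 1) to 41.1 (median 23.1). The change of Slc25a16 was -2.48 on the log2 scale (SE 0.695, adjusted p = 0.0146, edgeR), a call lost with the library number series as a covariate (adjusted p = 0.0797). Slc25a42, which imports coenzyme A, missed the threshold at -1.48 on the log2 scale (SE 0.621, adjusted p = 0.0812, edgeR), and 5 of 6 endfeet libraries were below all whole astrocyte libraries. Limma voom called Slc25a42 lower, as did edgeR with endfeet libraries 4 to 6 only. Slc25a17, the peroxisomal nucleotide carrier, overlapped between groups, from 53.9 to 66.1 against 24.6 to 172.2 normalized CPM (log2 fold change 0.08, SE 0.558).

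**Figure D2:**
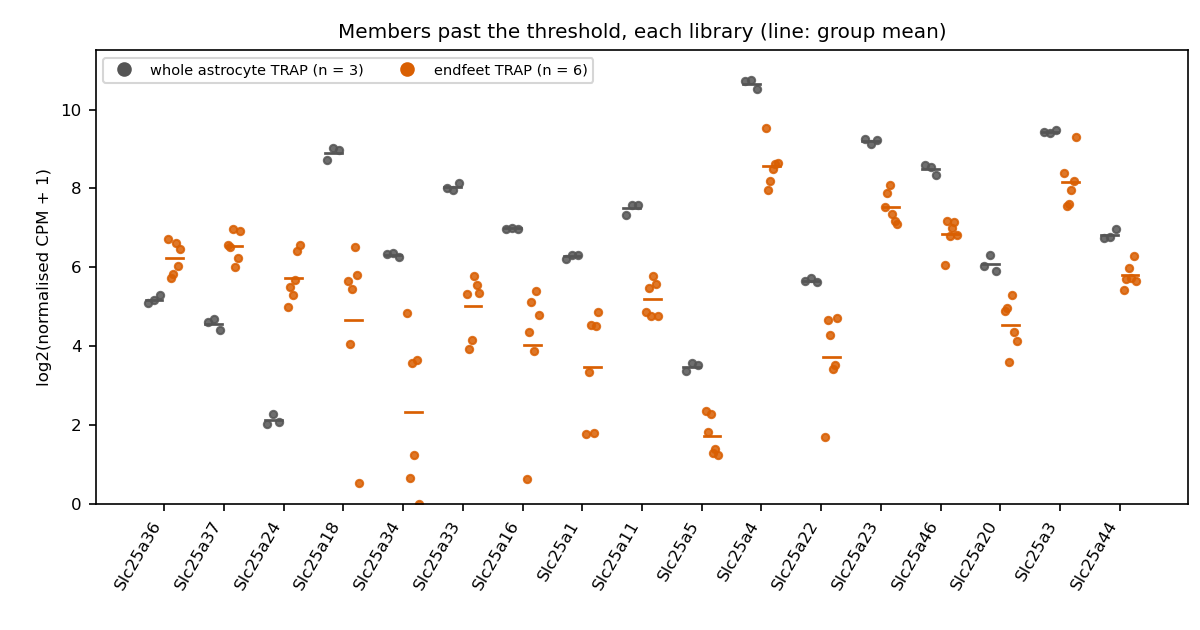
Level of the 17 members past the threshold in each library, as log2(normalized CPM + 1) on the y axis. Gray points are the 3 whole astrocyte libraries, orange points the 6 endfeet libraries, and lines the group means on this scale. Endfeet points lie above all gray points for Slc25a36, Slc25a37 and Slc25a24 and below them for the other 14.

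Among the di- and tricarboxylate carriers, 2 of 4 were lower. Slc25a11 (chromosome 11, 70644196 to 70647479), the oxoglutarate carrier that forms an arm of the malate-aspartate shuttle, had 160.9, 190.8 and 190.8 normalized CPM in whole astrocyte TRAP. In endfeet TRAP it ran from 26.0 to 54.0 (median 35.6), with no overlap, and the log2 fold change was -2.27 (SE 0.317, adjusted p = 0.000129, edgeR). Slc25a1 (chromosome 16, 17925223 to 17928219), which exports citrate for fatty acid synthesis, had 73.0, 78.0 and 78.6 normalized CPM in whole astrocyte TRAP. In endfeet TRAP it was uneven, at 2.44 and 2.50 in libraries 1 and 4, 9.19 in library 2 and 21.8 to 28.3 in the other three. For Slc25a1 the log2 fold change was -2.42 (SE 0.680, adjusted p = 0.0148, edgeR), and without a whole astrocyte library the adjusted p rose to between 0.05 and 0.0508, and with thinned libraries to 0.138. The dicarboxylate carrier Slc25a10 (log2 fold change -1.33, SE 1.0) and the oxodicarboxylate carrier Slc25a21 (0.49, SE 0.576) did not pass the threshold in edgeR, while limma voom called Slc25a10 lower.

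Glutamate handling is a defining task of astrocytes, and 2 of the 4 members that carry it, the glutamate carriers Slc25a18 and Slc25a22, were lower in endfeet TRAP. Slc25a18 (chromosome 6, 120773578 to 120794336), a glutamate carrier, was the third member by TPM in whole astrocyte TRAP (710.8 ± 74.8, SD, n = 3) but the eighth in endfeet TRAP (70.2 ± 55.4, SD, n = 6). It had 419.7, 518.1 and 505.5 normalized CPM in whole astrocyte TRAP, and 49.0, 15.5, 42.7, 90.2, 55.2 and 0.457 in endfeet libraries 1 to 6. The value of library 6 is a single count, below the floor of 3 counts, and the highest endfeet value was still far below the lowest whole astrocyte value. The log2 fold change was -3.50 (SE 0.715, adjusted p = 0.00214, edgeR), the largest fall among the members tested, and without library 6 the call was kept. The second glutamate carrier, Slc25a22 (chromosome 7, 141429744 to 141437892), had 49.0, 51.7 and 48.7 normalized CPM in whole astrocyte TRAP, and endfeet libraries spanned 2.25 to 25.1 (median 14.6). Its log2 fold change of -1.72 (SE 0.595, adjusted p = 0.0392, edgeR) lost the call without any 1 of the whole astrocyte libraries (adjusted p from 0.109 to 0.124), without endfeet library 3 or 5, with the replicate block and with thinned libraries.

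The aspartate/glutamate carriers, the calcium-sensitive arm of the malate-aspartate shuttle, did not pass the threshold. Slc25a12 (chromosome 2, 71271063 to 71367749) had 119.3, 108.2 and 110.1 normalized CPM in whole astrocyte TRAP. In endfeet libraries 1 to 6 it had 236.2, 87.2, 78.7, 102.4, 91.8 and 65.3, so that library 1 lay above and the other 5 below all whole astrocyte libraries. On the log2 scale the fold change was -0.03 (SE 0.387, adjusted p = 0.961, edgeR), with a sign that turned in several alternatives, and the value ran from -0.51 to 0.27 over the alternatives that left no single library out. Slc25a13 (chromosome 6, 6041218 to 6217173) was scarce, at 1.81, 0.926 and 1.38 normalized CPM in whole astrocyte TRAP, and at 0 in 3 endfeet libraries and 1.69 to 8.26 in the others. With a log2 fold change of 0.71 and an SE of 1.57 (adjusted p = 0.76, edgeR), neither a rise nor a fall of Slc25a13 was detectable, and the sign turned without endfeet library 1.

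**Figure D3:**
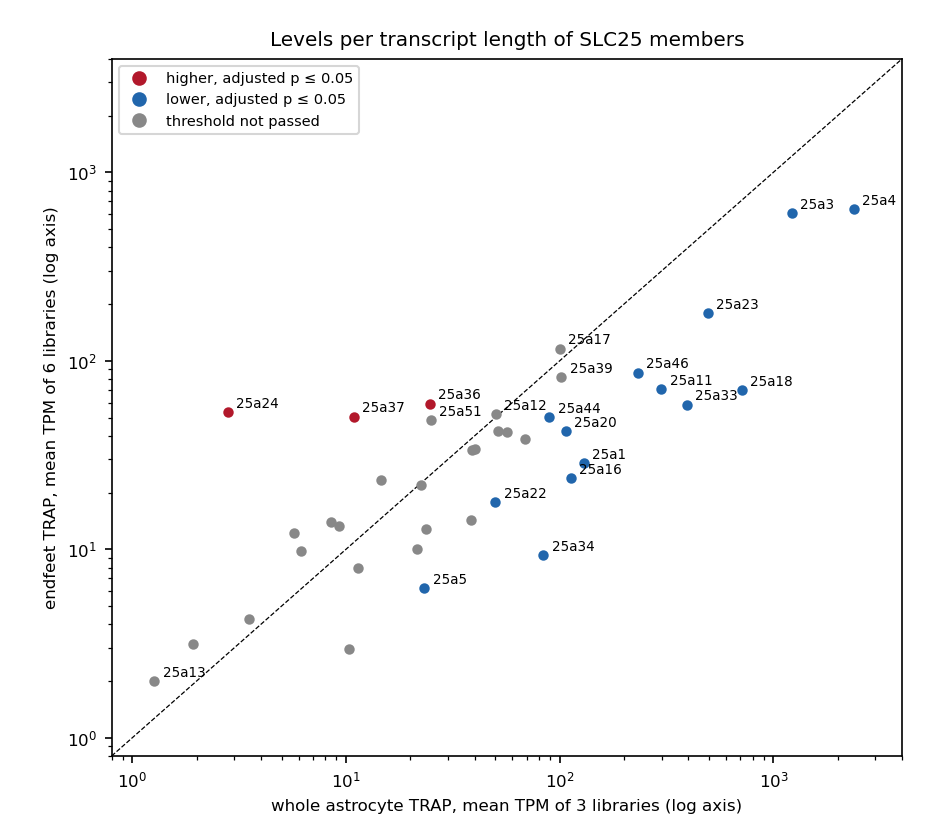
Mean TPM of 40 tested members in whole astrocyte TRAP (x axis, 3 libraries) and endfeet TRAP (y axis, 6 libraries), both on log axes, with equality dashed. Slc25a4 and Slc25a3 lead both groups below the dashed line, Slc25a18 lies farther below it, and Slc25a24 lies far above.

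Other amino acid carriers mostly overlapped between the groups. Slc25a44 (chromosome 3, 88410498 to 88425139), a carrier of branched-chain amino acids, had 107.1, 107.4 and 125.2 normalized CPM in whole astrocyte TRAP, and endfeet libraries spanned 41.8 to 77.5 (median 51.9). All endfeet libraries were lower, and the log2 fold change was -1.02 (SE 0.292, adjusted p = 0.0161, edgeR), a call lost without any 1 of the whole astrocyte libraries (adjusted p from 0.0631 to 0.095) and with thinned libraries (adjusted p = 0.168). The ornithine/citrulline carrier Slc25a15 (log2 fold change -0.48, SE 0.612), the basic amino acid carrier Slc25a29 (-0.73, SE 1.56) and the glycine carrier Slc25a38 (-1.05, SE 0.689) did not pass in edgeR. Limma voom called all of them lower, and edgeR with the replicate block called Slc25a15 and Slc25a38. Slc25a20 (chromosome 9, 108662088 to 108684641), which brings acylcarnitines to fatty acid oxidation, had 64.3, 78.3 and 59.5 normalized CPM in whole astrocyte TRAP, and endfeet libraries spanned 11.2 to 38.2 (median 24.3). The log2 fold change of Slc25a20 was -1.48 (SE 0.423, adjusted p = 0.0161, edgeR), also lost without any 1 of the whole astrocyte libraries (adjusted p from 0.0514 to 0.0933) and with thinned libraries (adjusted p = 0.184).

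The mitoferrins, which import iron for heme and iron-sulfur clusters, differed from each other. Slc25a37 (mitoferrin-1, chromosome 14, 69241848 to 69285112) had 23.6, 24.7 and 20.2 normalized CPM in whole astrocyte TRAP and 63.1 (lowest), 92.0 (median) and 125.1 (highest) in endfeet TRAP. All endfeet libraries were higher, at 2.05 on the log2 scale (SE 0.355, adjusted p = 0.000682, edgeR), and its TPM rank moved from 32 to 13. Its representative transcript is annotated as a retained intron, and the call was the same with protein-coding transcripts alone. Slc25a28 (mitoferrin-2) had 20.3 to 23.0 normalized CPM in whole astrocyte TRAP and 7.77 to 43.0 in endfeet TRAP, with 5 of 6 endfeet libraries below (log2 fold change -0.29, SE 0.593).

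Of the 5 cofactor carriers described here, 0 passed the threshold in the main edgeR fit and 0 had an unadjusted p under 0.05, while limma voom called Slc25a51 higher. Slc25a51, which imports NAD+, was the nearest, with 40.2, 36.9 and 40.6 normalized CPM in whole astrocyte TRAP, and endfeet libraries spanned 49.2 to 106.4 (median 56.9). Its groups did not overlap, yet the log2 fold change of 0.77 (SE 0.360) had an adjusted p of 0.116 in edgeR. DESeq2 called Slc25a51 higher, and so did edgeR with the library number series as a covariate and with endfeet libraries 4 to 6 only. The glutathione carriers Slc25a39 (log2 fold change -0.45, SE 0.353) and Slc25a40 (0.53, SE 0.812), the S-adenosylmethionine carrier Slc25a26 (-0.40, SE 0.463) and the folate and flavin carrier Slc25a32 (0.52, SE 0.643) overlapped between the groups or missed the threshold. Of Slc25a40, 29.7% of the transcript is shared with another gene. The carriers related to uncoupling proteins, Slc25a14 (log2 fold change -0.38, SE 0.85), Slc25a27 (0.45, SE 0.720) and Slc25a30 (0.49, SE 1.11), did not pass either, and 0 of them had an unadjusted p under 0.05 in the main edgeR fit. Limma voom called Slc25a14 lower, as did edgeR with endfeet libraries 4 to 6 only.

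Of the members without a settled substrate, 2 of 6 tested were lower. Slc25a46, a protein of the outer membrane that takes part in mitochondrial dynamics, had 386.3, 369.1 and 323.5 normalized CPM in whole astrocyte TRAP, and endfeet libraries spanned 66.0 to 143.6 (median 119.1). Its log2 fold change was -1.63 (SE 0.263, adjusted p = 0.000402, edgeR), and all endfeet libraries were lower. Slc25a34 (chromosome 4, 141618824 to 141623821) had 80.3, 80.8 and 76.2 normalized CPM in whole astrocyte TRAP, and 27.8, 0.575, 10.8, 1.37, 11.7 and 0 in endfeet libraries 1 to 6. Its log2 fold change was -3.17 (SE 0.992, adjusted p = 0.0251, edgeR), again lost without any 1 of the whole astrocyte libraries (adjusted p from 0.0644 to 0.0717). Slc25a35 (-0.76, SE 1.04), Slc25a45 (0.05, SE 1.10), Slc25a47 (-2.0, SE 1.44) and Slc25a53 (1.16, SE 1.15) had log2 fold changes that did not pass in edgeR, while limma voom called Slc25a47 lower, and 31.6% of the exonic bases of Slc25a35 overlap Rangrf on the opposite strand. The 6 members not tested were Slc25a2, Slc25a31, Slc25a41, Slc25a43, Slc25a48 and Slc25a54. Of these, Slc25a2 had 375 counts in endfeet library 5 and at most 3 in any other library, and Slc25a43 had 54 in endfeet library 5 and at most 11 in any other. Slc25a48 and Slc25a54 had at most 0.730 and 0.433 normalized CPM in whole astrocyte libraries, while an endfeet library held 0 counts and at most 2 counts of them. All endfeet libraries lay below all whole astrocyte libraries for both, for Slc25a54 at 0.147 against 0.154. These whole astrocyte levels lie within or below the endfeet floor of 0.223 to 1.29 CPM, so a fall cannot be told apart from low depth. Without the filter on low counts, edgeR called Slc25a48 lower and did not call Slc25a54.

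Ratios between related members within a library do not depend on its scaling. They were taken as log2 ratios of counts per kb with 0.5 counts added, and the groups were compared by a two-sided exact permutation test over the 84 placements of 6 and 3 libraries. The smallest p this design allows is 0.0119. As 3 of the 6 pairs reached it, their p after Benjamini-Hochberg adjustment over the 6 pairs was 0.0238. The ratio of Slc25a23 to Slc25a24 fell from 7.46 ± 0.228 (SD, n = 3) to 1.83 ± 0.966 (SD, n = 6), a difference of -5.63 (exact permutation test, adjusted p = 0.0238). In whole astrocyte TRAP Slc25a23 thus prevailed by far per length, and in endfeet libraries the log2 ratio lay between 0.58 and 2.84. The ratio of Slc25a33 to Slc25a36 fell from 3.99 ± 0.0675 to -0.14 ± 0.523, a difference of -4.13 (exact permutation test, adjusted p = 0.0238), and that of Slc25a28 to Slc25a37 from 1.88 ± 0.0653 to -0.66 ± 1.07, a difference of -2.54 (exact permutation test, adjusted p = 0.0238). For these 3 pairs the 6 endfeet libraries lay below all whole astrocyte libraries. For Slc25a23 to Slc25a24 and Slc25a33 to Slc25a36 this followed from the member values given above. In both pairs the first member lay below and the second above all whole astrocyte libraries in every endfeet library. The remaining pair includes Slc25a37, which was higher in all endfeet libraries. These tests thus restate the member results as a balance and are no separate evidence. With 1 library left out, the smaller number of placements raised the adjusted p to between 0.0357 and 0.0714.

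The other 3 pairs are those whose signature stretches are printed above, and the groups overlapped in each. The log2 ratio of Slc25a4 to Slc25a5 was 6.68 ± 0.193 in whole astrocyte TRAP against 6.70 ± 0.754 in endfeet TRAP, a difference of 0.03 (exact permutation test, adjusted p = 0.94), with the counts of Slc25a5 uncertain as stated. Endfeet libraries 4 to 6 (7.24 to 7.34) lay above all whole astrocyte libraries (6.49 to 6.87), and endfeet libraries 2 and 3 (5.95 and 5.59) below them. With endfeet libraries 4 to 6 only, the difference was 0.61 (exact permutation test, adjusted p = 0.15). The log2 ratio of Slc25a12 to Slc25a13 was 5.34 ± 0.415 in whole astrocyte TRAP. In endfeet libraries 2, 3 and 6 Slc25a13 had 0 counts, so the ratio there was set by the 0.5 counts added, and no group mean or test is given. In endfeet libraries 1, 4 and 5 this log2 ratio was 3.77, 4.84 and 3.66, below the lowest whole astrocyte value of 4.98. That of Slc25a18 to Slc25a22 was 3.82 ± 0.148 and 1.44 ± 3.45, a difference of -2.38 (exact permutation test, adjusted p = 0.429), and ran from -4.65 in endfeet library 6 to 4.94 in library 1.

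**Figure D4:**
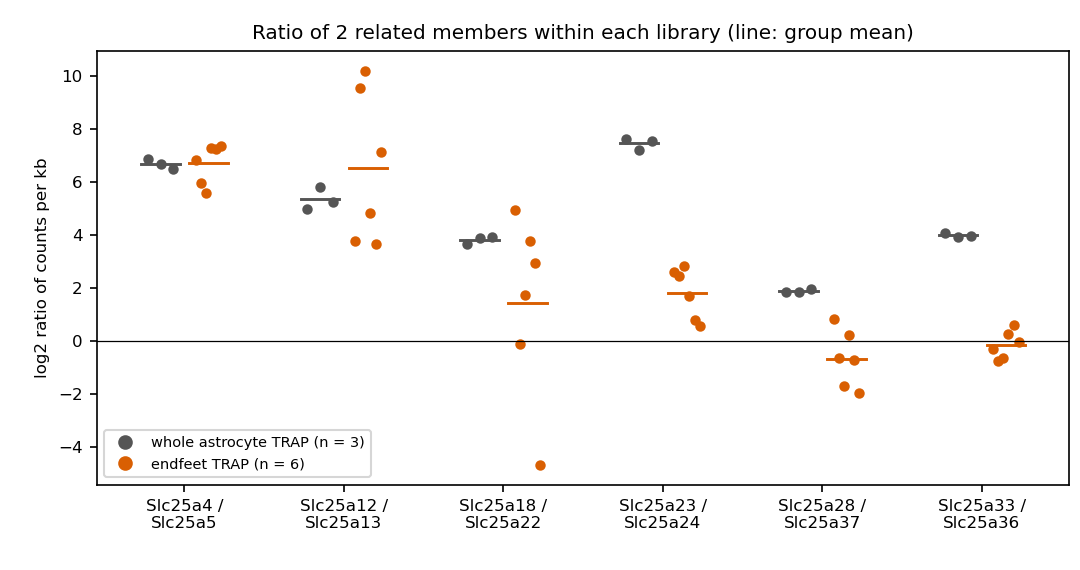
Log2 ratio of counts per kb between 2 related members (y axis) within each library, for 6 pairs (x axis). Gray points are whole astrocyte libraries (n = 3), orange points endfeet libraries (n = 6), and lines group means. The ratios Slc25a23 to Slc25a24, Slc25a28 to Slc25a37 and Slc25a33 to Slc25a36 are lower in all endfeet libraries, and the other pairs overlap. For Slc25a12 to Slc25a13, the 3 highest endfeet points rest on 0 counts of Slc25a13 and the 0.5 counts added.

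Other genes of mitochondrial transport were compared in the same edgeR fit, in which 13.9% of all genes tested were lower and 20.7% higher. Of the family proteins with other names, the uncoupling protein Ucp2 was higher (log2 fold change 1.80, SE 0.324, adjusted p = 0.00089), and Ucp3 (-5.86, SE 1.16, adjusted p = 0.00172) and the outer membrane protein Mtch1 (-1.32, SE 0.280, adjusted p = 0.00269) were lower, while Mtch2 did not pass (-1.20, adjusted p = 0.0594). Of the 12 genes that import carriers, 5 were lower and 0 higher, among them the small chaperones of the intermembrane space Timm8b, Timm13, Timm10 and Timm9 (log2 fold changes -1.96, -2.41, -2.35 and -1.87) and Timm29 (-0.95). Of 14 other inner membrane transporters, 5 were lower, 9 did not pass and 0 were higher. The lower ones were the serine carrier Sfxn1, its relative Sfxn5 (log2 fold change -2.95, SE 0.252, adjusted p = 2.41e-06), the pyruvate carrier subunit Mpc2, and Micu3 and Smdt1 of the calcium uniporter. Of the porins of the outer membrane, Vdac1 (-1.74) and Vdac2 (-1.15) were lower in log2 fold change and Vdac3 did not pass.

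The mRNAs encoded in the mitochondrial genome, which mitochondria translate on their own ribosomes, were compared in the same fit. All 7 that passed the filter were higher in endfeet TRAP, with a median log2 fold change of 7.13, and their list summed to 4033 to 8137 normalized CPM against 26.5 to 52.2. Of the 13 genes, 5 were at 0 in all libraries. The authors had removed reads aligning more than once, and whether this produced these 0 counts was not tested. They are therefore not read as absence of the mRNAs, and the list sum may be incomplete. The tagged L10a belongs to cytosolic ribosomes, and the part that mitochondrial RNA outside tagged ribosomes had in the member differences was not tested.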

How the data were processed

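TRAP RNA-seq was compared between 6 endfeet and 3 whole astrocyte libraries. The authors' pipeline removed short and low-quality reads, aligned the rest to mm10 with Bowtie, discarded reads aligning more than once and counted overlaps with HTSeq 0.5.3. For each library the authors deposited raw counts by Ensembl transcript, without normalization or pooling.

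Of 75466 transcripts, 73164 (96.95%) were matched to 22092 genes of GENCODE M21, each represented by its transcript of highest summed CPM. Groups were compared with edgeR 4.0.16 (TMM, filterByExpr, quasi-likelihood test) in R 4.3.3, with Benjamini-Hochberg adjustment over all genes tested and a threshold of 0.05. Standard errors are the absolute log2 fold change over the square root of F. Normalized CPM uses TMM-scaled library sizes, and TPM the transcript lengths. Alternatives used DESeq2 1.42.0 (the package of the study), limma 3.58.1 (voom with a weight for each group), other filters, covariates and samples. Only the main edgeR fit was run on simulated data, drawn with the same spread in both groups. That run cannot show how the fit behaves with the unequal spread of these libraries. Tables were joined with pandas 2.3.3 (Python 3.11.15).

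Members, role lists and markers were chosen with earlier results of these data known. Each member is named under its role, except 1 that counts in the family totals but is not reported here. Values per library are given for members past the threshold, at most 12 in a direction by adjusted p, for the 3 highest by TPM in each group, and for Slc25a12, Slc25a13, Slc25a18 and Slc25a22. At most 4 genes of any other pathway list are named, those with the smallest adjusted p. All astrocyte markers are named. Outside this rule, and after their values were seen, Slc25a5, Slc25a51, the ranges of Slc25a17, Slc25a25 and Slc25a28, and the fifth gene of 2 pathway lists (Mpc2, Timm9) were added. Fitting protein-coding transcripts alone was also chosen after seeing the data, since 4 members were represented by another transcript type. No source says whether the library numbers mark a batch, and p-values measure the spread between these libraries.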

Additional observations from a re-analysis of the deposited data

Results flagged for a closer look

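In 14 of the 43 members examined, 1 endfeet library stood apart from the other 5. Its gap to the nearest neighbor was large for the group's range (above Dixon's 95% critical value). That cut-off is passed in about 1 of 20 groups only if values are normally distributed. Widely spread counts need not be, and every value that stood apart was the highest, so the number flagged has no known rate to be set against. Of these, 8 were in endfeet library 1, and their values in normalized CPM follow. Slc25a4 had 735.1 there (next 402.5) and Slc25a12 had 236.2 (next 102.4). Slc25a14 had 112.2 (next 23.7) and Slc25a53 had 62.7 (next 15.3). Slc25a29 had 48.4 (next 8.99), Slc25a42 had 46.0 (next 19.0), Slc25a28 had 43.0 (next 19.2) and Slc25a27 had 33.6 (next 13.0). Without this library, Slc25a14 and Slc25a42 passed the threshold on the lower side in edgeR's quasi-likelihood test and the number of lower members was 16.

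In endfeet library 6, the shallowest, Slc25a3 had 630.9 (next 336.6) and Slc25a17 had 172.2 (next 79.2) normalized CPM. In endfeet library 5, Slc25a2 had 27.6 (next 0.457) and Slc25a43 had 3.98 (next 1.26). Slc25a47 had 6.31 in endfeet library 3 (next 1.69). Slc25a31 had 0.46 in endfeet library 2 and 0 in the others, where any count at all would be flagged.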

How the results depend on the processing

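Over 20 alternatives, the members that kept their call wherever they were tested were Slc25a4, Slc25a11, Slc25a18, Slc25a23, Slc25a24, Slc25a33, Slc25a37 and Slc25a46. The number of lower members was 9 with the library series as a covariate, 22 with limma voom, which weighted each group by its spread, and 8 with libraries thinned to the smallest. It ran from 7 to 16 with a library left out, while that of higher members ran from 2 to 4 over all alternatives and from 2 to 3 with a library left out. Of all genes tested, the share lower was 13.9%, and it was 11.6% with the covariate, 31.1% (4485 genes, against 2006) with limma voom, 9.07% (1137 genes) thinned and 7.89% to 18.4% with a library left out. The share higher was 20.7%, and it ran from 12.6% to 27.7% over all alternatives and from 12.6% to 23.6% with a library left out. Leaving out any whole astrocyte library ended the calls of Slc25a1, Slc25a3, Slc25a5, Slc25a20, Slc25a22, Slc25a34, Slc25a36 and Slc25a44. The median log2 fold change of the members was -1.38 with limma voom, -0.37 thinned and -0.94 to -0.42 with a library left out, and that of all genes was -0.29 with limma voom and 0.26 thinned, against 0.10. With the replicate block the medians were -1.22 for members and -0.22 for all genes, with 2 higher and 14 lower members, of which 2 and 12 were among the main calls. Libraries with the same replicate number did not deviate together (mean correlation 0.00651, lowest -0.0359). With 3 such pairs and the wide spread of endfeet libraries, this cannot show whether they share more than a number.

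Slc25a12 turned sign with the replicate block (0.0558), thinned (0.27) and with a library left out (-0.41 to 0.0912), and Slc25a13 with the replicate block (-2.74), limma voom (-1.38) and a library left out (-0.30 to 1.03). The ratio of Slc25a4 to Slc25a5 turned with 5 counts added (-0.36), counts summed over transcripts (-0.15) and a library left out (-0.10 to 0.25), and that of Slc25a12 to Slc25a13, which rests on the counts added, with 5 counts added (-0.45) and with endfeet libraries 4 to 6 only (-0.14). With endfeet libraries 4 to 6 only, the ratio differences were -6.43 for Slc25a23 to Slc25a24, -2.70 for Slc25a28 to Slc25a37 and -3.71 for Slc25a33 to Slc25a36. Each had an adjusted p of 0.15 (exact permutation test, 20 placements), as had Slc25a4 to Slc25a5 with a difference of 0.61. With a library left out the differences were -5.83 to -5.38 for Slc25a23 to Slc25a24, -2.84 to -2.28 for Slc25a28 to Slc25a37 and -4.28 to -4.01 for Slc25a33 to Slc25a36. The causes were not tested, apart from the fewer placements. The depth of endfeet library 6 limits scarce members.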
